A study of Sus scrofa with 6 samples.

Results

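Genes that cells switch on when oxygen is short were followed in liver RNA of newborn piglets, library by library. The set named 10 genes: P4HA1, P4HA2, VEGFA, ADM, EGLN3, BNIP3, ANKRD37, PFKFB3, PFKFB4 and NDRG1. Each was looked up by its Ensembl identifier for the pig, and 9 of the 10 were found among the 26733 genes of the tables. BNIP3 has no identifier in the symbol table used and was not analysed here. The set was chosen by measured values: its starting point is P4HA1, selected on FPKM that differ more than 10-fold between libraries. Its own spread is thus a description, and the question put to the other genes was whether they follow it.

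The libraries were made from liver of Landrace x Yorkshire newborn piglets, and the groups differ in what the sows ate. In the High-Low group, sow feed held 0.39% tryptophan at the 07:00 meal and 0.13% at the 14:30 meal. In the 2×Trp group it held 0.26% at both meals. Each group had 3 libraries. The labels do not say whether separate piglets or litters gave the libraries, and the p-values therefore cover just the variation seen among these libraries, part or all of which may be technical. Values were read as FPKM, that is fragments scaled to transcript length and to library size. The reads behind a value were recovered from the steps between the values, and the library sizes that this gave ran from 13346000 to 18895000 reads. A recovered read may be a read pair.

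The hypoxia response is run by HIF, a transcription factor made of an alpha subunit (HIF1A, EPAS1 or HIF3A) and the constant partner ARNT. With oxygen present, prolyl hydroxylases of the EGLN family mark the alpha subunit for destruction, and without it the subunit builds up and turns on genes for glycolysis, blood vessel growth, iron handling and collagen making. In liver, oxygen falls along each lobule from the portal vein to the central vein, and HIF target genes are known to follow that gradient. Control of HIF acts mainly on the protein, which RNA levels do not measure.

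The tissue label was checked against markers. Of 9 hepatocyte markers with an identifier, 8 were tested and AHSG is listed at 0 in every library. Their summed level ran from 42655 to 65437 FPKM in High-Low libraries and from 44215 to 59592 FPKM in 2×Trp libraries. The markers were far from even: ALB lay between 9391 and 19795 FPKM over all libraries, and APOB between 1.37 and 22.6 FPKM. The reason for the 0 of AHSG and the low APOB was not tested, and a value at or near 0 is not read here as absence. Libraries stood apart within the High-Low group. On the first principal component of all tested genes with P4HA1 left out, which carried 36.0% of the variance and was signed to run with P4HA1, High-Low 1 scored 46.5, High-Low 2 -38.5 and High-Low 3 18.3, against -23.4, -2.48 and -0.425 in 2×Trp 1, 2 and 3. High-Low 1 and High-Low 2 are thus the opposite ends of that component, and they are also the 2 libraries farthest from the P4HA1 median. Correlations of the members are therefore given with all 6 libraries and again without those 2.

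P4HA1 is the catalytic alpha subunit of the collagen prolyl hydroxylase that lets collagen chains form a stable triple helix. It lies on chromosome 14 at 81892549 to 82002822 of the susScr3 assembly, minus strand (ENSSSCG00000010292). It had 48.9, 3.61 and 28.3 FPKM in High-Low 1, 2 and 3, against 9.02, 15 and 34.6 FPKM in 2×Trp 1, 2 and 3. The highest and the lowest value both belong to the High-Low group, so the groups overlap over the whole 2×Trp range, and the highest library stood 13.5 times above the lowest. These values rest on 2274, 140 and 1248 reads in the High-Low libraries and on 317, 495 and 1605 in the 2×Trp libraries. The 95% exact Poisson interval, which covers counting error only, was 3.04 to 4.26 FPKM in High-Low 2 and 46.9 to 50.9 FPKM in High-Low 1. The group means were 26.9 ± 22.7 FPKM in High-Low and 19.6 ± 13.4 FPKM in 2×Trp (SD, n = 3 each). The log2 difference, High-Low minus 2×Trp on the log2(FPKM + 1) scale, was 0.08 with a 95% interval of -1.98 to 2.14.

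**Figure D1:**
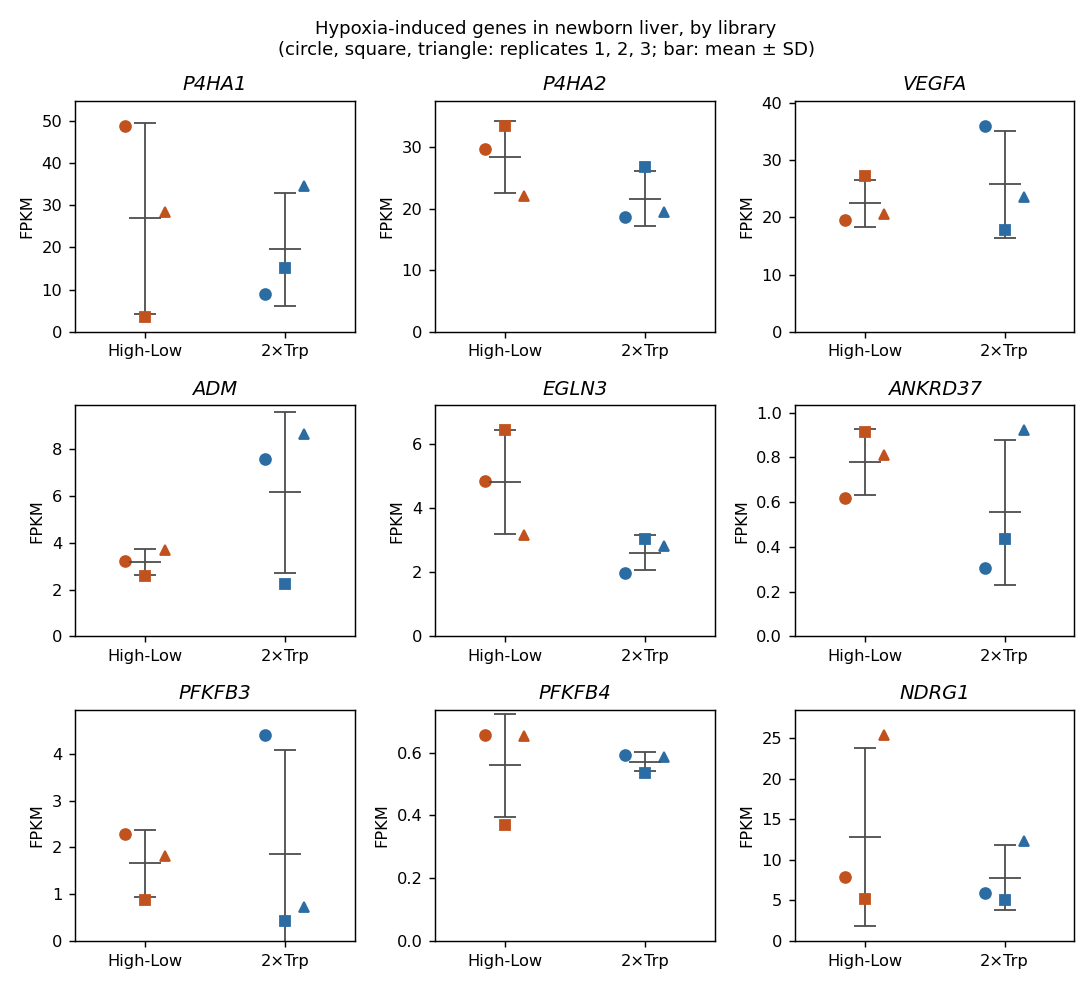
FPKM of the 9 hypoxia-induced genes with an identifier, High-Low libraries left and 2×Trp libraries right; each point is a library (circle, square and triangle are replicates 1, 2 and 3), the long bar is the mean and the whiskers are ± 1 SD, cut at 0 for PFKFB3. The lowest P4HA1 point (High-Low 2, 3.61 FPKM) holds the highest value of P4HA2 and EGLN3, and only EGLN3 has groups that do not overlap.

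None of the other members with enough signal followed P4HA1 past the threshold. Of the 9, 7 reached 1 FPKM in at least 3 libraries and entered the tests, P4HA1 included. ANKRD37 and PFKFB4 stayed under 1 FPKM in all 6 libraries and did not. In limma with P4HA1 as the covariate, 0 of the 6 others passed an adjusted p of 0.05, and their adjusted p ran from 0.361 for NDRG1 to 0.962 for PFKFB3. The same fit called 2 of all 10900 other tested genes, or 0.0183%. By an exact permutation test of Pearson's r over the 720 pairings, 0 of the 6 had an unadjusted two-sided p under 0.05, where 15.2% of all tested genes did. The r of the 6 members ran from -0.58 to 0.58 with a median of -0.09, beside a median of -0.08 over all tested genes. Of the 6, 3 had a positive and 3 a negative r.

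The highest values of the 9 members were scattered over 5 libraries. P4HA1 and PFKFB4 were highest in High-Low 1, P4HA2 and EGLN3 in High-Low 2, and NDRG1 in High-Low 3. VEGFA and PFKFB3 were highest in 2×Trp 1, and ADM and ANKRD37 in 2×Trp 3. No library held the highest value of more than 2 members. 2×Trp 2 held no highest value and was the lowest library for 4 of the 8 members other than P4HA1. Its P4HA1 level was the third lowest of the 6.

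**Figure D2:**
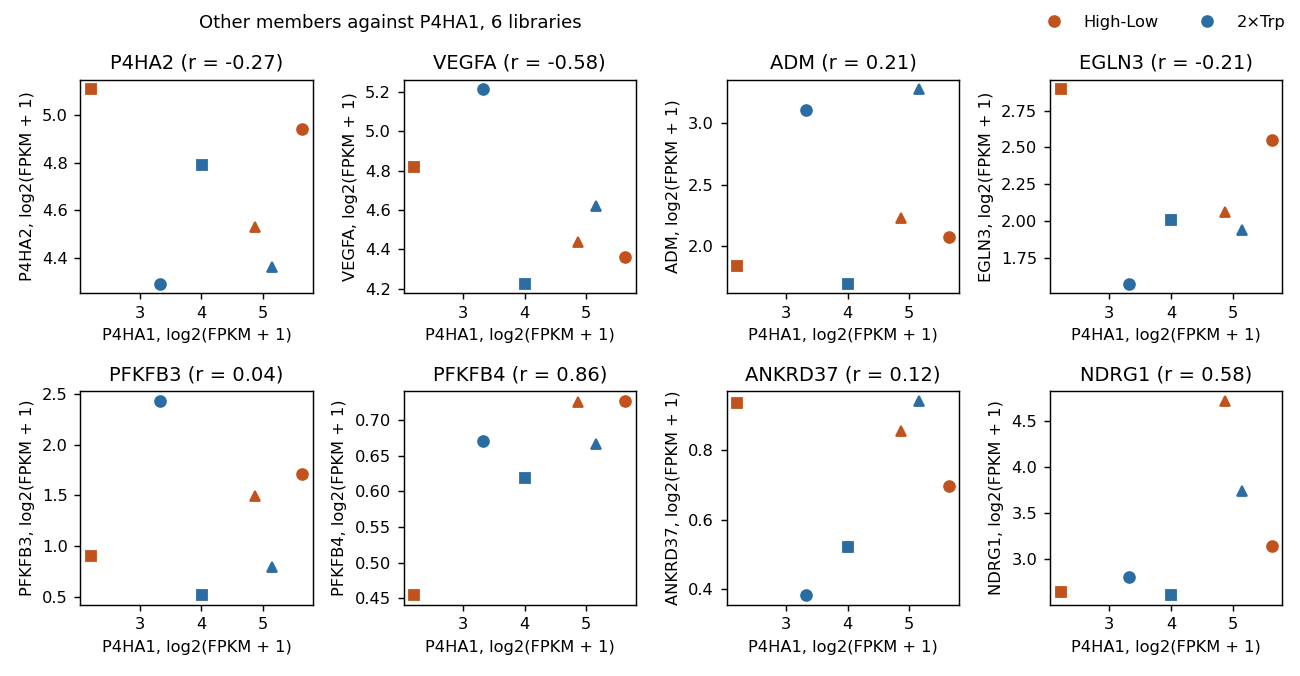
Level of the 8 other members (y axis) against P4HA1 (x axis), both as log2(FPKM + 1), in 6 libraries; orange is High-Low, blue is 2×Trp, and circle, square and triangle are replicates 1, 2 and 3. Pearson's r runs from -0.58 for VEGFA to 0.86 for PFKFB4, whose values all lie under 1 FPKM.

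Among the collagen enzymes, P4HA2 encodes the sister alpha subunit of the same hydroxylase (ENSSSCG00000020915, chromosome 2, 139853769 to 139885838, minus strand). It had 29.7, 33.5 and 22.1 FPKM in High-Low 1, 2 and 3, against 18.6, 26.7 and 19.5 FPKM in 2×Trp 1, 2 and 3. Its spread was narrow, 1.80-fold from lowest to highest, and its highest value fell in the library where P4HA1 was lowest. In High-Low 2 the level of P4HA2 was above that of P4HA1, and in High-Low 1 it was below. Pearson's r with P4HA1 was -0.27 (exact permutation p = 0.599, adjusted p = 0.786 over all tested genes), and Spearman's rho was -0.09 (exact p = 0.919). Without the 2 farthest libraries r was 0.03. The means were 28.5 ± 5.82 FPKM in High-Low and 21.6 ± 4.45 FPKM in 2×Trp (SD, n = 3 each), and the groups overlap. The diet difference in log2 was 0.38 (SE 0.24, limma adjusted p = 0.998).

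The other tested collagen-modifying enzymes did not share the order of P4HA1 either. Of 12 symbols on that list, 7 had an identifier and 5 were tested, and all 5 had a negative r, with a median of -0.49. PLOD1, a lysyl hydroxylase, had r = -0.69 (exact permutation p = 0.125), with 49.6, 70.0 and 57.6 FPKM in High-Low 1, 2 and 3 and 49.3, 55.7 and 49.6 FPKM in 2×Trp 1, 2 and 3. The prolyl 3-hydroxylases P3H2, P3H1 and P3H3 had r of -0.55, -0.49 and -0.43. None of the 5 passed the limma threshold or an unadjusted exact p of 0.05. PLOD1 rests on 1 library: without High-Low 2 its r was -0.08. PLOD2, a lysyl hydroxylase that is a known HIF target, was too low to be tested, with 1.52, 0.214 and 0.879 FPKM in High-Low 1, 2 and 3 and 0.275, 1.09 and 0.806 FPKM in 2×Trp 1, 2 and 3. Like P4HA1, PLOD2 was highest in High-Low 1 and lowest in High-Low 2, on 51 and 6 reads. PLOD2 was named after its values were seen.

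Of the secreted members, VEGFA is the growth factor that drives new blood vessels (ENSSSCG00000001695, chromosome 7, 44459903 to 44474467, plus strand). It had 19.5, 27.2 and 20.6 FPKM in High-Low 1, 2 and 3, against 36.1, 17.7 and 23.6 FPKM in 2×Trp 1, 2 and 3, on 384 to 836 reads a library. 2×Trp 1 was highest and 2×Trp 2 lowest, so the 2×Trp group spans all High-Low values. The r of -0.58 with P4HA1 was the most negative of the members (exact permutation p = 0.239, adjusted p = 0.515; rho = -0.54, exact p = 0.297), and it was -0.53 without the 2 farthest libraries. VEGFA averaged 22.4 ± 4.12 FPKM in High-Low and 25.8 ± 9.37 FPKM in 2×Trp (SD, n = 3 each), a log2 difference of -0.15 (SE 0.29, limma adjusted p = 0.998).

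ADM encodes adrenomedullin, a peptide that widens blood vessels (ENSSSCG00000013408, chromosome 2, 52576215 to 52578540, minus strand). It had 3.22, 2.59 and 3.70 FPKM in High-Low 1, 2 and 3, against 7.61, 2.25 and 8.66 FPKM in 2×Trp 1, 2 and 3, on 38 to 207 reads. 2×Trp 1 and 2×Trp 3 stood above every other library, while 2×Trp 2 was the lowest of all, so the groups overlap. These high libraries differ in P4HA1, which was 9.02 FPKM in 2×Trp 1 and 34.6 FPKM in 2×Trp 3. The r with P4HA1 was 0.21 (exact permutation p = 0.682, adjusted p = 0.837; rho = 0.31, exact p = 0.564) and 0.08 without the 2 farthest libraries. ADM averaged 3.17 ± 0.555 FPKM in High-Low and 6.17 ± 3.44 FPKM in 2×Trp (SD, n = 3 each), with a log2 difference of -0.64 (SE 0.42, 95% interval -1.62 to 0.34, limma adjusted p = 0.998).

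EGLN3, an oxygen-dependent prolyl hydroxylase that acts on HIF and is itself a HIF target (ENSSSCG00000001963, chromosome 7, 70667589 to 70695692, plus strand), was the only member whose groups did not overlap. It had 4.85, 6.43 and 3.18 FPKM in High-Low 1, 2 and 3, against 1.98, 3.02 and 2.83 FPKM in 2×Trp 1, 2 and 3. All 3 High-Low values lie above all 2×Trp values. Groups of 3 failed to overlap in 7.18% of all tested genes, and in 3.06% with High-Low on the higher side, so 1 member of the 7 tested is no more than a description. The nearest values of the groups are not told apart by counting error: High-Low 3 rests on 173 reads with a 95% exact Poisson interval of 2.72 to 3.68 FPKM, which overlaps the 2.51 to 3.61 FPKM of 2×Trp 2 on 123 reads. The means were 4.82 ± 1.63 FPKM in High-Low and 2.61 ± 0.555 FPKM in 2×Trp (SD, n = 3 each). The log2 difference of 0.66 (SE 0.27, 95% interval 0.02 to 1.30) had an unadjusted p of 0.0447 and an adjusted p of 0.998 in limma. An unadjusted p under 0.05 was reached by 3.16% of all tested genes.

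The link of EGLN3 to P4HA1 depended on 1 library. Over all 6, r was -0.21 (exact permutation p = 0.676, adjusted p = 0.832; rho = -0.03, exact p = 1). Without High-Low 2, where P4HA1 is lowest and EGLN3 highest, r was 0.84. Without the 2 farthest libraries it was 0.75. Over the other 5 libraries EGLN3 thus had the order of P4HA1 in part, with a limma adjusted p of 0.455 or more in every fit that left out 1 library.

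Of the glycolysis regulators, PFKFB3 makes fructose 2,6-bisphosphate, the signal that speeds up phosphofructokinase (ENSSSCG00000011133, chromosome 10, 70831452 to 70853803, plus strand). It had 2.28, 0.871 and 1.82 FPKM in High-Low 1, 2 and 3, against 4.41, 0.429 and 0.730 FPKM in 2×Trp 1, 2 and 3. Its measured spread was 10.3-fold from lowest to highest, with an order unlike that of P4HA1: 2×Trp 1 was highest with 110 reads and 2×Trp 2 lowest with 10 reads. The 95% exact Poisson intervals were 3.63 to 5.32 FPKM in 2×Trp 1 and 0.206 to 0.789 FPKM in 2×Trp 2. The size of that ratio is thus known only loosely. In High-Low 1, 2 and 3 the reads were 75, 24 and 57, and in 2×Trp 3 they were 24. The r with P4HA1 was 0.04 (exact permutation p = 0.933, adjusted p = 0.970; rho = 0.03, exact p = 1) and -0.56 without the 2 farthest libraries. PFKFB3 averaged 1.66 ± 0.717 FPKM in High-Low and 1.86 ± 2.22 FPKM in 2×Trp (SD, n = 3 each), a log2 difference of 0.12 (SE 0.51, limma adjusted p = 0.998).

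PFKFB4, another enzyme of that family (ENSSSCG00000011353, chromosome 13, 34459111 to 34500668, minus strand), had the r closest to 1 of the members, at a level too low to test. It had 0.655, 0.371 and 0.653 FPKM in High-Low 1, 2 and 3, against 0.591, 0.535 and 0.587 FPKM in 2×Trp 1, 2 and 3. These rest on 19, 9 and 18 reads in the High-Low libraries and on 13, 11 and 17 reads in the 2×Trp libraries. High-Low 2 is the low point, and the other 5 libraries lie close together. The 95% exact Poisson intervals of its highest and lowest library, 11.4 to 29.7 reads in High-Low 1 and 4.12 to 17.1 reads in High-Low 2, overlap. The r with P4HA1 was 0.86 (exact permutation p = 0.0264, outside the tested genes; rho = 0.71, exact p = 0.136), and it was 0.40 without the 2 farthest libraries. PFKFB4 averaged 0.560 ± 0.164 FPKM in High-Low and 0.571 ± 0.0311 FPKM in 2×Trp (SD, n = 3 each). Of the rest of the family, PFKFB2 had a negative r of -0.63, and PFKFB1 stayed between 0.0658 and 0.363 FPKM. Both were named after their values were seen.

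NDRG1, a stress-response protein of the cytoplasm that is a standard marker of hypoxia in cultured cells (ENSSSCG00000005944, chromosome 4, 7894534 to 7931354, plus strand), had the highest r of the tested members. It had 7.83, 5.21 and 25.4 FPKM in High-Low 1, 2 and 3, against 5.95, 5.09 and 12.4 FPKM in 2×Trp 1, 2 and 3, on 54 to 363 reads. High-Low 3 and 2×Trp 3 stood above the rest, and both are among the 3 libraries of highest P4HA1. High-Low 1, where P4HA1 peaked, had the third highest NDRG1. The r with P4HA1 was 0.58 (exact permutation p = 0.242, adjusted p = 0.518; rho = 0.60, exact p = 0.242) and 0.76 without the 2 farthest libraries. NDRG1 averaged 12.8 ± 11 FPKM in High-Low and 7.80 ± 3.98 FPKM in 2×Trp (SD, n = 3 each), and its log2 difference of 0.45 (SE 0.56, limma adjusted p = 0.998) turned to -0.16 without High-Low 3.

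ANKRD37, a small ankyrin-repeat protein that is a HIF target in human cells (ENSSSCG00000015798, chromosome 15, 53346645 to 53349699, minus strand), was barely detected. It had 0.620, 0.911 and 0.810 FPKM in High-Low 1, 2 and 3, against 0.303, 0.436 and 0.922 FPKM in 2×Trp 1, 2 and 3. That is 8, 10 and 10 reads in High-Low and 3, 4 and 12 reads in 2×Trp. At this depth no order of the libraries can be read from it. Its r with P4HA1 was 0.12 (exact permutation p = 0.824, outside the tested genes; rho = 0.20, exact p = 0.714), and 0.99 without the 2 farthest libraries. ANKRD37 averaged 0.781 ± 0.148 FPKM in High-Low and 0.554 ± 0.326 FPKM in 2×Trp (SD, n = 3 each).

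By diet, none of the 7 tested members passed the threshold: limma gave each an adjusted p of 0.998. Over all 10901 tested genes 1 was called, or 0.00917%. That gene is Novel01392, an unnamed mitochondrial feature at 1 to 1122, and it did not follow P4HA1 (r = 0.02, exact permutation p = 0.968). Other than P4HA1, 4 tested members were higher in High-Low and 2 lower, with a median log2 difference of 0.25, beside a median of -0.00384 over all tested genes. The direction was the same without any single library for EGLN3, P4HA2 and ADM. It turned for P4HA1, PFKFB3, NDRG1 and VEGFA, and for P4HA1 the log2 difference ran from -0.62 without High-Low 1 to 1.10 without High-Low 2. In the same comparison all 11 tested endothelial markers and 5 of 6 macrophage markers had negative log2 differences, with medians of -0.41 and -0.63. Erythroid markers had negative log2 differences for 5 of 6, with a median of -0.64, and neutrophil markers had positive ones for 6 of 6, with a median of 0.61. The summed neutrophil level stood apart in High-Low 2 alone. It was 39.2, 157 and 47.1 FPKM in High-Low 1, 2 and 3, against 33.7, 39.9 and 53.1 FPKM in 2×Trp 1, 2 and 3. The part of any of these cell types in the member values was not tested.

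The oxygen-sensing machinery itself was next to be set against P4HA1. Of 16 symbols on that list, 11 had an identifier and 10 were tested, while HIF1AN is listed at 0 in every library. Of the 10, 7 had a positive and 3 a negative r, with a median of 0.30. None passed the limma threshold. The exact p of r was under 0.05, unadjusted, for 3 of the 10, HIF1A, ARNT and CREBBP, all with positive r. Of all tested genes, 15.2% had that in either direction and 7.06% on the positive side. The gene lists were chosen with earlier results of these data known, so such shares are a description only.

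HIF1A, the HIF alpha subunit best known for the acute response, had 2.48, 0.951 and 1.59 FPKM in High-Low 1, 2 and 3, against 0.888, 1.21 and 1.67 FPKM in 2×Trp 1, 2 and 3. It was highest where P4HA1 was highest and low in the libraries of low P4HA1, on 122, 39 and 74 reads in High-Low and 33, 42 and 82 reads in 2×Trp. Its r was 0.90 (exact permutation p = 0.0181, adjusted p = 0.279; rho = 0.94, exact p = 0.0167) and 0.996 without the 2 farthest libraries. ARNT, the partner subunit, had 11.3, 3.95 and 10.2 FPKM in High-Low 1, 2 and 3, against 5.86, 4.47 and 7.26 FPKM in 2×Trp 1, 2 and 3, with r = 0.86 (exact permutation p = 0.0389, adjusted p = 0.304). Both subunits were lower in High-Low 2 than in High-Low 1 and High-Low 3. CREBBP, a coactivator that HIF recruits, had r = 0.83 (exact permutation p = 0.0333, adjusted p = 0.299), which was 0.52 without High-Low 2 and 0.22 without the 2 farthest libraries. The limma adjusted p of these 3 ran from 0.181 to 0.277.

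EPAS1, which encodes HIF-2 alpha, stood at higher FPKM than HIF1A in every library, and its values lay close together. It had 26.8, 28.3 and 25.8 FPKM in High-Low 1, 2 and 3, against 35.6, 28.3 and 27.2 FPKM in 2×Trp 1, 2 and 3, with r = -0.51 (exact permutation p = 0.299). EGLN1, the main oxygen sensor of the pathway, lay between 5.56 and 7.77 FPKM with r = -0.26, and HIF3A had r = 0.05. The coactivator EP300 had r = 0.56, which was 0.13 without High-Low 2. In the ligase that destroys HIF alpha subunits, the scaffold CUL2 had r = 0.55 (0.35 without High-Low 2), ELOC 0.02 and ELOB -0.69. None of these 7 reached an unadjusted exact p of 0.05.

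**Figure D3:**
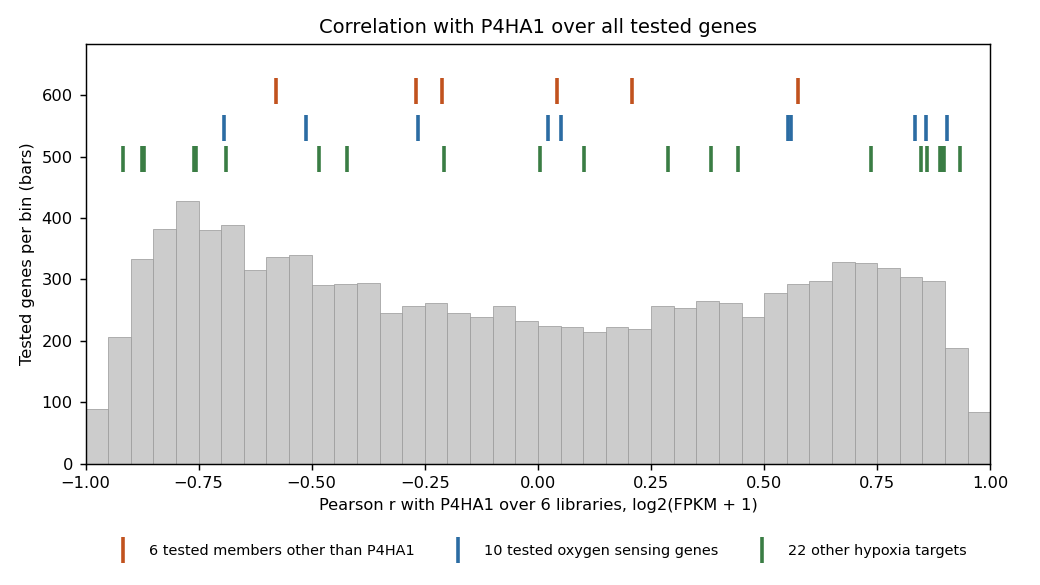
Histogram of Pearson's r with P4HA1 over 6 libraries on log2(FPKM + 1) for the 10900 other tested genes (bars, genes per bin), with ticks for the 6 tested members, the 10 oxygen-sensing genes and 22 other hypoxia targets; tick height has no meaning. All genes together have a median r of -0.08 with a wide SD of 0.58, and the members lie between -0.58 and 0.58, away from both ends.

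A wider list of hypoxia targets gave genes at both ends. Of 45 symbols, 33 had an identifier and 22 were tested, 12 with positive and 10 with negative r, with a median of 0.05. None passed the limma threshold. An unadjusted exact p under 0.05 was reached by 9 of the 22, 6 with positive r and 3 with negative r, where 15.2% of all tested genes reached it, 7.06% with positive and 8.12% with negative r. This list too was chosen with earlier results of these data known, so its share is a description only. MXI1, a MYC antagonist, had r = 0.93 (exact permutation p = 0.00833, adjusted p = 0.273), with 8.35, 2.33 and 8.67 FPKM in High-Low 1, 2 and 3 and 4.60, 5.51 and 6.17 FPKM in 2×Trp 1, 2 and 3. IGFBP1, a liver-secreted binding protein of insulin-like growth factors, had r = 0.90 (exact permutation p = 0.0125, adjusted p = 0.279), with 2925, 187 and 990 FPKM in High-Low 1, 2 and 3 and 1133, 1034 and 1975 FPKM in 2×Trp 1, 2 and 3. ZNF395 had r = 0.89 (exact permutation p = 0.0125, adjusted p = 0.279). On the opposite side, KDM4B, a histone demethylase, had r = -0.92 (exact permutation p = 0.00278, adjusted p = 0.244), with 12.3, 25.9 and 17.7 FPKM in High-Low 1, 2 and 3 and 19.9, 17.6 and 17.2 FPKM in 2×Trp 1, 2 and 3. IGFBP1 was lowest and KDM4B highest in High-Low 2, where P4HA1 was lowest. Without the 2 farthest libraries r was 0.77 for MXI1, 0.51 for IGFBP1, 0.67 for ZNF395 and -0.86 for KDM4B.

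The remaining targets under that p were named after their values were seen. BNIP3L, a mitophagy receptor and close relative of BNIP3, had 6.78, 2.97 and 6.92 FPKM in High-Low 1, 2 and 3, against 4.05, 7.54 and 6.37 FPKM in 2×Trp 1, 2 and 3 (r = 0.85). GBE1, the glycogen branching enzyme, had 31.8, 2.84 and 16.1 FPKM in High-Low 1, 2 and 3 and 4.68, 10.8 and 7.31 FPKM in 2×Trp 1, 2 and 3 (r = 0.86). RIOK3 had r = 0.89, while NOS3, the endothelial nitric oxide synthase, and PPP1R3B, a glycogen-targeting subunit of protein phosphatase 1, had r of -0.87 and -0.88.

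Glycolytic enzymes and related genes, which HIF turns on in many cells, were divided. Of 20 symbols, 17 had an identifier and 15 were tested, 7 with positive and 8 with negative r, with a median of -0.02, and none passed the limma threshold. An unadjusted exact p under 0.05 was reached by 2, a share no higher than the 15.2% of all tested genes. PDK1, a kinase that holds pyruvate back from oxidation in mitochondria, had r = 0.83 (exact permutation p = 0.0264, adjusted p = 0.288), with 5.07, 0.891 and 5.0 FPKM in High-Low 1, 2 and 3 and 2.84, 4.48 and 3.04 FPKM in 2×Trp 1, 2 and 3. Its r was 0.51 without High-Low 2 and 0.29 without the 2 farthest libraries. ALDOC, an aldolase, had r = -0.83 (exact permutation p = 0.0486, adjusted p = 0.320). The classic targets LDHA and PGK1, named after their values were seen, had r of -0.11 and -0.02, so neither had the order of P4HA1. HK1, with r = -0.54 (-0.14 without High-Low 1), had 3.58, 8.55 and 6.69 FPKM in High-Low 1, 2 and 3, all below the 11.6, 11.2 and 10.3 FPKM in 2×Trp 1, 2 and 3. Its log2 difference of -0.79 (SE 0.29) had an unadjusted p of 0.0288 and an adjusted p of 0.998 in limma. An unadjusted p under 0.05 was reached by 3.16% of all tested genes. Of the 15 tested glycolytic genes, 2 had groups that did not overlap, both lower in High-Low, where 7.18% of all tested genes did not overlap in either direction.

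Genes of fasting and glucocorticoid signalling held another gene close to P4HA1. Of 20 symbols 12 had an identifier and all 12 were tested, 5 with positive and 7 with negative r, with a median of -0.15. PDK4, the fasting-induced relative of PDK1, had 10.7, 1.14 and 7.86 FPKM in High-Low 1, 2 and 3, against 2.45, 5.97 and 6.42 FPKM in 2×Trp 1, 2 and 3. Its r was 0.96 (exact permutation p = 0.00278, adjusted p = 0.244; limma adjusted p = 0.0749), so it missed the threshold. SGK1, a kinase induced by glucocorticoids, had r = -0.84 (exact permutation p = 0.0306), and the phosphatase DUSP1 had r = -0.80 (exact permutation p = 0.05), which was -0.44 without High-Low 2. An unadjusted exact p under 0.05 was reached by 3 of these 12, where 15.2% of all tested genes reached it. These 3 were PDK4, SGK1 and IGFBP1, which is also counted among the hypoxia targets above. Among 13 tested genes of the endoplasmic reticulum stress and ATF4 response, r was positive for 6 and negative for 7, with a median of -0.08. Their chaperone CALR had r = -0.84 (exact permutation p = 0.0319), CRELD2 -0.80, and the serine synthesis enzymes PSAT1 and PHGDH 0.70 and 0.69. None of these lists held a gene past the limma threshold.

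The genes with a symbol and a pattern most like P4HA1 stand on none of the hypoxia lists above. Those lists are small beside the 6532 tested genes with a symbol. They hold 6 tested members, 10 oxygen-sensing genes, 22 other targets and 15 glycolytic genes. Their absence from the top 8 is thus a description only. Likeness was measured by Pearson's r on log2(FPKM + 1) over the 6 libraries. The 8 tested genes with a symbol of highest r were HNRNPU at 0.996, HIPK1 at 0.994, CLEC16A at 0.991, ERBB3 at 0.990, ADSS2 at 0.986, CCDC28A at 0.982, FBXO3 at 0.980 and KIFBP at 0.978. HNRNPU, a nuclear RNA-binding protein, had 40.6, 19.3 and 36.3 FPKM in High-Low 1, 2 and 3, against 26.0, 29.2 and 36.9 FPKM in 2×Trp 1, 2 and 3. ERBB3, a receptor of the EGF receptor family, had 91.3, 25.6 and 61.3 FPKM in High-Low 1, 2 and 3, against 33.8, 43.2 and 71.5 FPKM in 2×Trp 1, 2 and 3. Both put the 6 libraries in exactly the order of P4HA1, with a smaller spread.

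The 5 lowest r were those of PRR5 at -0.993, DCTPP1 at -0.991, ODC1 at -0.990, RMND5B at -0.990 and UROS at -0.990. ODC1, which starts polyamine synthesis, had 40.7, 79.6 and 42.6 FPKM in High-Low 1, 2 and 3, against 64.0, 55.1 and 42.2 FPKM in 2×Trp 1, 2 and 3, the reverse order of P4HA1. An exact permutation p cannot go below 0.00139 with 6 libraries, and the smallest adjusted p over all tested genes was 0.233, so no r passes by that test. The limma adjusted p of these 13 genes ran from 0.0571 for ERBB3 to 0.270 for CLEC16A.

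The 2 genes that limma called have no symbol. Novel00319, on chromosome 13 at 119920914 to 119925326, minus strand, had 54.1, 1.87 and 24.4 FPKM in High-Low 1, 2 and 3, against 6.65, 14.6 and 39.0 FPKM in 2×Trp 1, 2 and 3. Its r was 0.997 and its limma adjusted p 0.00285. ENSSSCG00000003853, on chromosome 6 at 147007232 to 147077810, plus strand, had 21.2, 2.39 and 15.6 FPKM in High-Low 1, 2 and 3, against 4.57, 8.74 and 17.0 FPKM in 2×Trp 1, 2 and 3, with r = 0.995 and a limma adjusted p of 0.0228. Both have exactly the library order of P4HA1. Leaving out 1 library at a time, the call of Novel00319 was lost without High-Low 1 and without High-Low 2 (limma adjusted p 0.0116 to 0.208 over the 6 fits), and that of ENSSSCG00000003853 was lost in all 6 (0.0628 to 0.267).

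**Figure D4:**
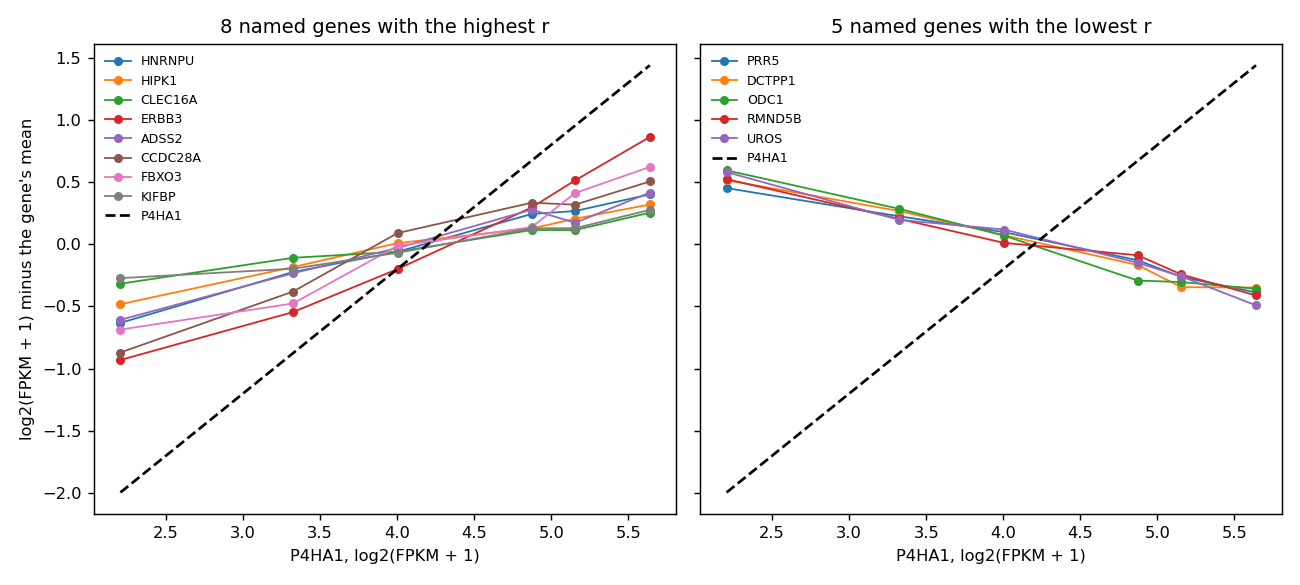
Centred level of named genes (y axis, log2(FPKM + 1) minus the gene's mean over 6 libraries) against P4HA1 (x axis, log2(FPKM + 1)); left, the 8 named genes with the highest r, right, the 5 with the lowest, with P4HA1 itself as a dashed line. Every one of the 13 lines is flatter than that of P4HA1, whose lowest and highest libraries differ 13.5-fold.

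The P4HA1 level ran beside a broad component of the data, though the 2 orders of the libraries are not identical: High-Low 3 and 2×Trp 3 change places. P4HA1 had r = 0.91 with the first principal component computed without it (exact permutation p = 0.0125, adjusted p = 0.05 over 4 library measures), rho = 0.94 (exact p = 0.0167, adjusted p = 0.0667), and r = 0.79 without the 2 farthest libraries. P4HA1 was selected for its wide spread between these libraries, and the component is the axis of their widest spread. The relation is therefore a description, and its p-values are no independent test. The recovered library size was 18895000, 15634000 and 17843000 reads in High-Low 1, 2 and 3, against 14198000, 13346000 and 18718000 reads in 2×Trp 1, 2 and 3, with r = 0.71 (exact permutation p = 0.118, adjusted p = 0.157; rho = 0.77, exact p = 0.103) and 0.89 without the 2 farthest. The number of genes listed at 0 had r = -0.82 (exact permutation p = 0.0639, adjusted p = 0.128; rho = -0.66, exact p = 0.175) and -0.86 without the 2 farthest libraries. The 3 libraries of highest P4HA1 are the 3 deepest and list the fewest genes at 0, between 10305 and 10509, beside 10868 to 10910 in the other 3. The FPKM total had r = -0.39 (exact permutation p = 0.433; rho = -0.49, exact p = 0.356) and -0.49 without the 2 farthest libraries. The part of depth in the P4HA1 order was not tested.

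Correlation with P4HA1 also ran with the length of genes on the genome. Over 5 bins of 2180 tested genes each, from the shortest to the longest genomic span, the median r was -0.30, -0.32, -0.16, 0.14 and 0.37. The share of genes with positive r was 36.1% in the bin of spans from 153 to 4128 bases and 66.6% in the bin from 42673 to 2556639 bases. This is a description across genes, which are not independent replicates. P4HA1 spans 110274 bases, in the range of the longest bin. Of the oxygen-sensing genes, HIF1A, ARNT, CREBBP, EP300 and EGLN1 are in that bin, with r of 0.90, 0.86, 0.83, 0.56 and -0.26. Of the hypoxia targets, ZNF395 (r = 0.89) is in the longest bin and KDM4B (r = -0.92) in the bin next to it. MXI1 and IGFBP1, with r of 0.93 and 0.90, are in the second shortest bin. Of the tested members, P4HA2, EGLN3, PFKFB3 and NDRG1 are in the bin next to the longest, VEGFA in the middle bin and ADM, of 2326 bases, in the shortest. The part of gene span in the relations to P4HA1 was not tested.

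**Figure D5:**
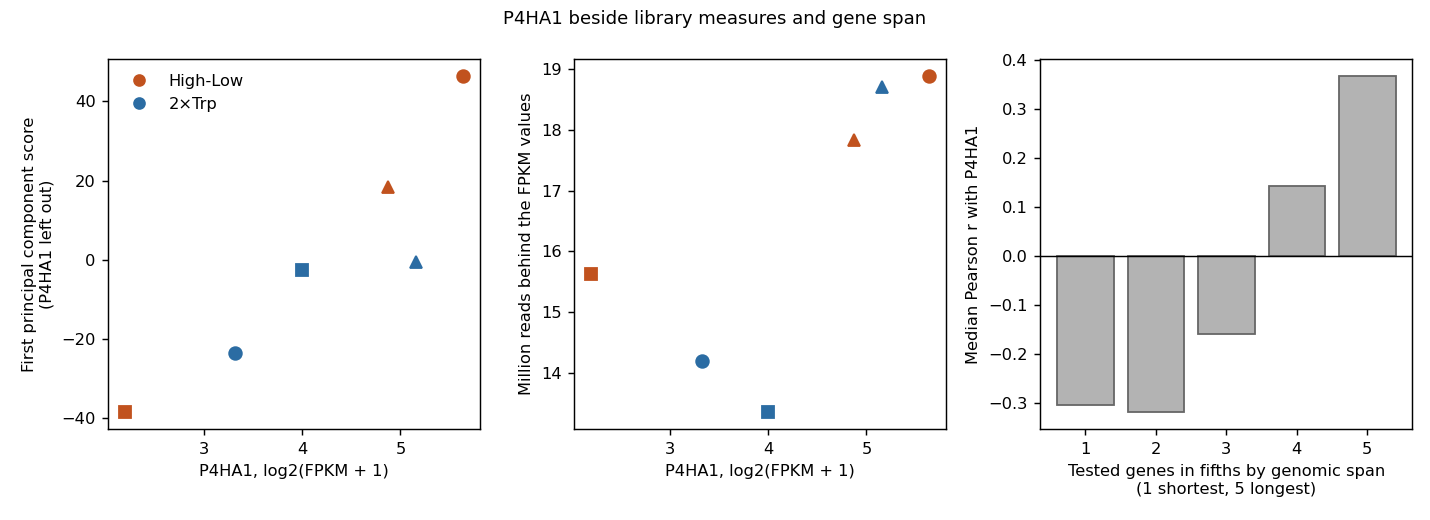
Left and middle, first principal component score and library size in reads (y axes) against P4HA1 as log2(FPKM + 1) (x axes) in 6 libraries, orange for High-Low, blue for 2×Trp, with circle, square and triangle for replicates 1, 2 and 3; right, median Pearson's r with P4HA1 (y axis) in 5 equal bins of tested genes by genomic span (x axis), as bars from 0. The component gives r = 0.91, and the bars run from -0.30 in the shortest bin to 0.37 in the longest.

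Immediate early genes, which cells switch on within minutes of a stimulus, and markers of other cell types were set beside P4HA1. In bulk liver, fewer cells of a type and less RNA per cell cannot be told apart. All 10 tested immediate early genes had a negative r, with a median of -0.74, and 3 had an unadjusted exact p under 0.05. Of all tested genes, 15.2% had that in either direction and 8.12% on the negative side. FOS, which the naming rule does not cover, had 2.35, 174 and 6.97 FPKM in High-Low 1, 2 and 3, against 23.3, 7.52 and 3.96 FPKM in 2×Trp 1, 2 and 3. The summed level of the list was 162, 799 and 173 FPKM in High-Low 1, 2 and 3, against 424, 144 and 173 FPKM in 2×Trp 1, 2 and 3. The library of lowest P4HA1, High-Low 2, thus had the most immediate early RNA, and 2×Trp 1, the next lowest in P4HA1, the next most.

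Neutrophil markers were highest in High-Low 2 too. All 6 tested had a negative r, with a median of -0.58, and their sum was 39.2, 157 and 47.1 FPKM in High-Low 1, 2 and 3, against 33.7 to 53.1 FPKM in 2×Trp. Collagen and stellate markers were negative for 10 of 12, with a median r of -0.15 and sums of 209 to 351 FPKM in High-Low and 215 to 481 FPKM in 2×Trp. Endothelial markers were negative for 8 of 11, with sums of 112 to 205 FPKM in High-Low and 181 to 222 FPKM in 2×Trp, and macrophage markers for 5 of 6, with sums of 249 to 450 FPKM in High-Low and 420 to 580 FPKM in 2×Trp. These lists were thus mostly on the negative side. Over all tested genes, 5809 of 10900 had a negative r, with a median of -0.08.

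Erythroid markers were negative for 4 of 6 and had the widest range, with sums of 1820 to 7201 FPKM in High-Low and 6174 to 15894 FPKM in 2×Trp. Bile duct markers were negative for 2 of 3 and lymphocyte markers for 1 of 2. The hepatocyte list had 3 positive and 5 negative r, with a median of -0.19. CPS1, the first enzyme of the urea cycle and chosen with its values in view, had the highest r of that list, 0.97 (exact permutation p = 0.00139). APOB and FGB, named in the same way, were the other positive ones, with r of 0.70 and 0.75. No defining marker of the 7 other cell types with an identifier was at 0 in all libraries, and the part of these cells in the levels of the hypoxia genes was not tested.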

How the data were processed

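RNA from newborn piglet liver was extracted with Trizol and made into libraries with an Illumina TruSeq kit, per the labels' protocols. Group and replicate number came from the sample titles. Per the submitters' processing notes, the pig assembly was susScr3 and the tools included TopHat2 2.0.12, Bowtie2 2.2.3 and HTSeq 0.6.1. The sources used here do not give the step that made the values, its annotation or its use of strand. Each library's deposited table states no unit, and the authors' values were read as FPKM because of their size and their steps.

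Members and gene lists were chosen with earlier results of these data known. A table of Ensembl identifiers gave symbols for 11804 of 25322 genes.

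FPKM were used as deposited. The 10901 genes that reached 1 FPKM in at least 3 libraries were fitted on log2(FPKM + 1), which understates changes of low genes, by limma 3.58.1 (R 4.3.3) with a mean trend and robust variance. One fit compared the diets, and another used P4HA1 as covariate. Adjusted p-values are Benjamini-Hochberg over all tested genes, at a threshold of 0.05. Pearson and Spearman correlations with P4HA1 have two-sided exact permutation p-values over 720 pairings. Both limma fits, and the recovery of reads described below, were tested on simulated data. The permutation correlations were not.

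Named genes were all members and detected oxygen-sensing genes, the 4 of highest absolute r of each of 5 further lists, the 8 highest and 5 lowest r among genes with a symbol, and called genes. Genes outside this rule are said to be named after their values were seen.

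Read numbers were recovered where 1 transcript length made the FPKM of all 6 libraries whole reads, to within 0.002 reads or a relative 4e-06. Of 1000 tested genes drawn, 71.1% were whole at exactly 1 length, and 8 of the 9 members were, P4HA2 being the exception. Poisson intervals at 95% cover counting error only. Alternatives were another pseudocount, no filter, 2 scalings, no robust variance, diet as a second term, a replicate block and leaving out each library. Plots used matplotlib 3.10.9 under Python 3.11.15.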

Additional observations from a re-analysis of the deposited data

How the results depend on the processing

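No member was called with P4HA1 or by diet under any alternative in which it was tested. PFKFB3 fell under the filter, and so was not tested, without High-Low 1, High-Low 3 or 2×Trp 1. With P4HA1 as covariate, where limma called 2 rising and 0 falling genes, the rising count was 1 with no filter, 1 with diet as a second term and 13 with libraries scaled to the same FPKM total, where 4 genes fell. ERBB3 passed the threshold only with that scaling (adjusted p = 0.0443, 0.0443 to 0.384 over the alternatives). Leaving out 1 library gave 0 to 2 rising genes, with 0 both without High-Low 1 and without High-Low 2, and 0 falling in each. For diet, 1 gene was lower, in place of 0, with the FPKM total scaling, and 1 to 2 were higher without 1 library, the 2 without 2×Trp 3. The ratio of highest to lowest P4HA1 was 14.0 with FPKM total scaling and 14.8 with upper quartile scaling, and 5.42 (without High-Low 2) to 13.5 without 1 library.

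The replicate numbers gave no sign of pairing the samples: deviations of same-numbered libraries correlated at -0.22, -0.01 and 0.03. With 3 libraries a group, these values cannot exclude a pairing. With a replicate block, 1 gene rose and 1 fell with P4HA1, and r turned for P4HA2 (0.41), ADM (-0.54), EGLN3 (0.16), PFKFB3 (-0.81), HIF3A (-0.55) and EGLN1 (0.39). EGLN1 also turned with either scaling, to 0.0335 with the FPKM total and 0.0278 with the upper quartile.

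Without 1 library, log2 diet differences turned for P4HA1 (-0.62 to 1.10), NDRG1 (-0.16 to 0.89), PFKFB3 (-0.24 to 0.36 over the 3 fits that tested it) and VEGFA (-0.38 to 0.12). Without 1 library, r turned for P4HA2 (-0.64 to 0.47), ADM (-0.15 to 0.49), EGLN3 (-0.57 to 0.84), PFKFB3 (-0.27 to 0.20, 3 fits), EGLN1 (-0.65 to 0.22), HIF3A (-0.26 to 0.43), ELOC (-0.40 to 0.42) and P3H2 (-0.83 to 0.10). The causes were not tested. Depth limits ANKRD37, PFKFB4 and PFKFB3 most, with as few as 3, 9 and 10 reads in a library.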
